A study of Mus musculus with 17 samples.

Results

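Abcb1a, Abcb1b and Abcb4 lie side by side on mouse chromosome 5 and code for closely related membrane pumps driven by ATP. They are 3 of the 37325 gene names on the array used here. The probes were found by their gene name in the scanner files, where 7 probes carry 1 of these names, and 4 of the 7 are among the 36695 probes of the authors' log2 table. The 3 genes were proposed because of their values under PCN in these same arrays, so their PCN differences are given as a description, and nothing is read from whether they pass a threshold in those contrasts. What was tested is the difference between genotypes without PCN, a comparison that uses the same control arrays.

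P-glycoprotein is the efflux pump that returns many drugs, steroids and plant compounds from the epithelial cell to the gut lumen. Rodents make it from a pair of genes, Abcb1a and Abcb1b, where humans have the single gene ABCB1. Abcb4 codes for a flippase best known from the liver, where it moves phosphatidylcholine into bile. The Abcb1 genes belong to the known targets of PXR, the nuclear receptor encoded by Nr1i2, which pairs with RXR and binds DNA at repeats of a short half-site. PCN (pregnenolone 16α-carbonitrile) is a steroid that activates rodent PXR.

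Total RNA of the colon of male mice was hybridised to 17 1-colour arrays. WT mice were C57BL/6J animals bought at 6 weeks of age. Pxr-/- mice lack the receptor in the whole body, were backcrossed to the same strain and came from the authors' own colony. The methods give no separate age for the Pxr-/- mice. Mice of all groups were acclimatized for 2 weeks. The PCN groups were dosed intraperitoneally at 100 mg/kg/day on 4 days, with corn oil as the vehicle, and the CONT groups were given the vehicle. The colon was taken at ZT6, 6 h after the final dose, and the labels give the animals as fed. Of 6 mice allocated to each group, the arrays hold WT CONT 2 to 5 (n = 4), WT PCN 1 to 4 (n = 4), Pxr-/- CONT 1 to 5 (n = 5) and Pxr-/- PCN 1 to 4 (n = 4). WT and Pxr-/- mice thus differ in origin as well as in genotype, and these cannot be told apart.

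Pairs of arrays with different labels were nearly the same. Across all 36695 probes, the SD of the log2 difference was 0.165 between WT PCN 4 and Pxr-/- PCN 2 and 0.233 between WT PCN 3 and Pxr-/- CONT 2, against 0.264 to 0.600 in the other pairs of the 136. The probe for Nr1i2, the gene targeted in Pxr-/- mice, had log2 values of 11.25 and 11.29 on the arrays labelled WT PCN 3 and WT PCN 4. These lie within the range of Pxr-/- CONT, 10.54 to 11.45, and below WT CONT, 11.83 to 12.45, and WT PCN 1 and 2, 12.29 and 11.98. The array labelled Pxr-/- PCN 3 had 12.09 for the same probe, within the WT CONT range, while the other Pxr-/- PCN arrays had 11.10 to 11.49. Whether this probe lies in the deleted part of the gene is not given in the sources used here. The model results below are therefore given with all 17 arrays and with the 13 that remain without these 4 arrays, and groups are named as labelled.

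The probes that carry the measurements are shown first, since the genes are paralogs and the signal of a gene is the signal of its probe. Each is 60 bases long. Probe 1 of Abcb4 is printed whole, as it has no stop codon in any of the 3 forward frames, and only the first 30 bases are printed of the other 2 probes. Capitals mark the longest run of bases that the probes of Abcb1b and Abcb4 share.
Abcb1a probe 1: actcagacatgggcacctgagttcagatcc
Abcb1b probe 1: TCCAGGCtggagcaaagcgctcatgagctg
Abcb4 probe 1: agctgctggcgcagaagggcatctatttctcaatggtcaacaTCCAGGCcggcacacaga
The shared run is 7 bases long, and around it the start of the Abcb1b probe and the end of the Abcb4 probe match at 13 of 18 overlapping bases. Abcb1a probe 1 shares no run longer than 7 bases with either. In the array files (build mm9), Abcb1a probe 1 lies at chr5:8748075-8748134, Abcb1b probe 1 at chr5:8865925-8865984 and Abcb4 probe 1 at chr5:8959108-8959167, each on the sequence of a RefSeq transcript of its gene. Transcript sequences of the 3 genes were not used here, so whether a probe also binds the transcript of a paralog was not tested.

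The 7 probes fell into bright and dim ones. The median spot intensity of Abcb1a probe 1 was 6580 to 48298 over the 17 arrays, that of Abcb1b probe 1 was 830 to 5828 and that of Abcb4 probe 1 was 3478.5 to 25015.5, against a median background of 20 to 28 per array. All 3 were well above background on 17 of 17 arrays. Abcb1a probe 2, at chr5:8733543-8733602 and annotated to another transcript, was dim at 47 to 189 but well above background on 16 arrays. The second probe of Abcb1b, at chr5:8827445-8827707, had intensities of 28 to 44.5 and was well above background only on WT PCN 1. Abcb4 probe 2, at chr5:8940956-8941015, had 24 to 46 and was likewise well above background on WT PCN 1 alone, and Abcb4 probe 3, at chr5:8899682-8899741, had 26 to 39 and was not well above background on any array. Abcb1b and Abcb4 were thus measured by 1 probe each, and their dim probes, of which 1 per gene is annotated to the same RefSeq transcript as its bright probe, gave no fold to set beside it.

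**Figure D1:**
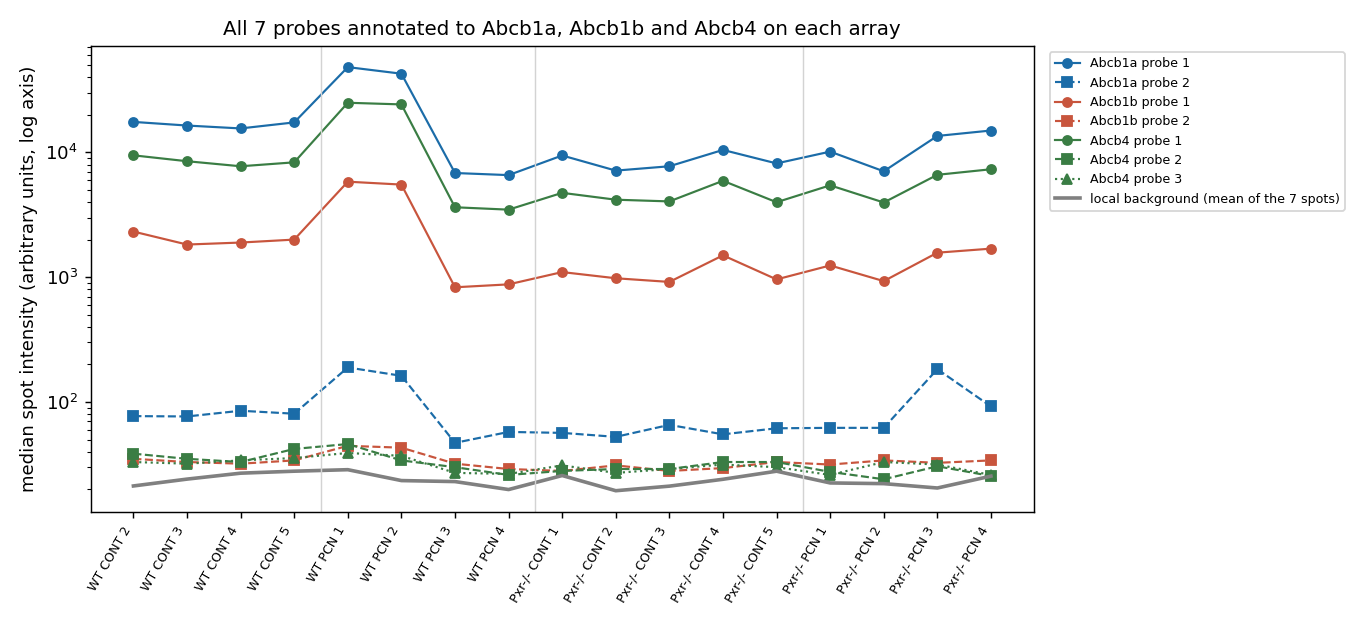
Median spot intensity (arbitrary units, log axis) of the 7 probes on each of the 17 arrays, with the mean local background of the 7 spots in grey. The 3 first probes rise and fall together far above the background, Abcb1a probe 2 lies between 47 and 189, and the dim probes of Abcb1b and Abcb4 stay between 24 and 46. Intensities of different probes do not compare transcript levels.

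Abcb1a, the main P-glycoprotein gene of the mouse intestine, varied over more than 2 log2 units between arrays. In WT CONT, the log2 values of probe 1 were 14.00, 14.09, 13.75 and 13.87 on arrays 2 to 5. In WT PCN, they were 15.17 and 15.45 on arrays 1 and 2, and 13.09 and 12.88 on arrays 3 and 4. The first 2 PCN arrays are above every WT CONT array and the others below every one, so that the group falls on both sides of its control.

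In Pxr-/- CONT, Abcb1a probe 1 had 13.20, 12.75, 13.05, 13.46 and 12.98 on arrays 1 to 5. In Pxr-/- PCN, it had 13.41, 12.86, 13.68 and 13.75 on arrays 1 to 4. All 9 Pxr-/- arrays are at or below the lowest WT CONT array to 2 decimals, and WT PCN 3 and 4 lie within the range of Pxr-/- CONT. Pxr-/- PCN 1 lies within that range too, Pxr-/- PCN 3 and 4 above it.

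Abcb1b, the other P-glycoprotein gene of rodents, gave the same order of groups. Its probe 1 had 11.01, 10.87, 10.74 and 10.72 in WT CONT and 12.19, 12.46, 10.04 and 9.92 in WT PCN 1 to 4. In Pxr-/- CONT 1 to 5 the values were 10.16, 9.94, 9.94, 10.63 and 9.94, and in Pxr-/- PCN 1 to 4 they were 10.45, 9.90, 10.59 and 10.61. WT PCN 1 and 2 were again above all other arrays, and all 4 Pxr-/- PCN arrays lay below Pxr-/- CONT 4.

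Abcb4, the phospholipid flippase, had 13.08, 13.10, 12.79 and 12.84 in WT CONT and 14.27, 14.57, 12.14 and 11.91 in WT PCN 1 to 4. Its values were 12.24, 12.01, 12.08, 12.60 and 11.99 in Pxr-/- CONT 1 to 5 and 12.58, 11.99, 12.62 and 12.73 in Pxr-/- PCN 1 to 4. Every Pxr-/- array was below every WT CONT array. The share of all probes with this order of both Pxr-/- groups against WT CONT is not given here. As RNA came from whole colon, more of the cells that carry a transcript and more transcript per cell cannot be told apart for any of these genes.

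**Figure D2:**
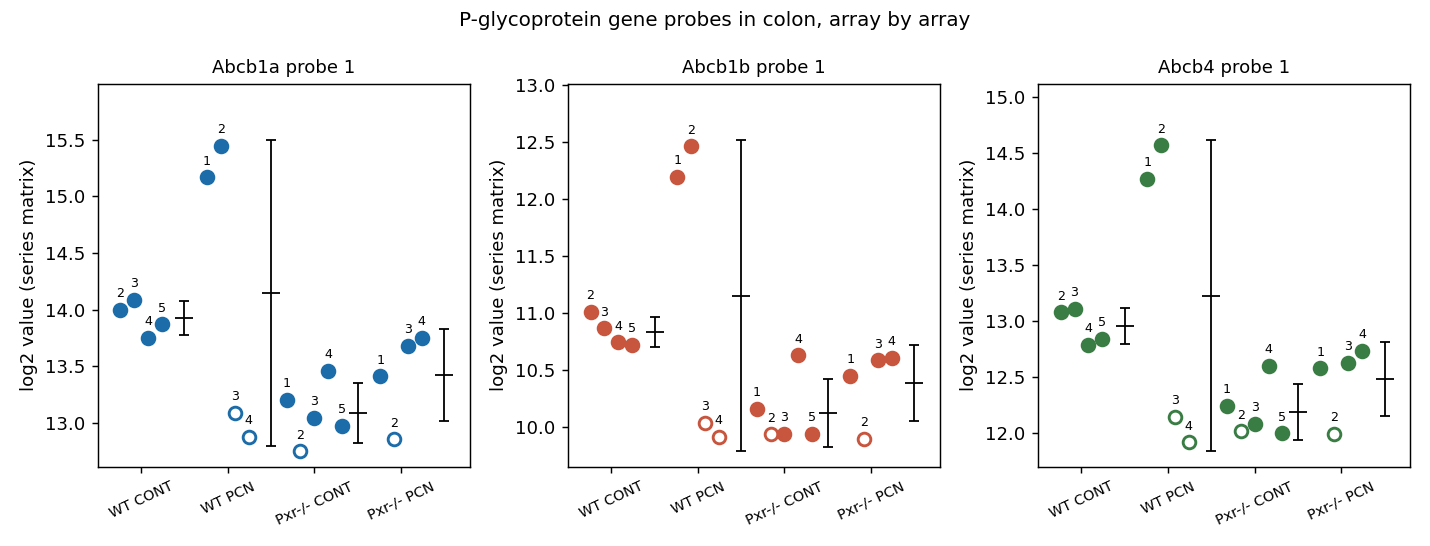
Log2 value of probe 1 of each gene on every array, by group, with the replicate number beside each point; open points are the 4 near-identical arrays, and the black bar is the group mean ± SD. WT PCN 1 and 2 are the highest arrays for all 3 genes, at 15.17 and 15.45 for Abcb1a, while WT PCN 3 and 4 lie below every WT CONT array.

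The weakly lit Abcb1a probe 2 followed probe 1 on most arrays. It had 6.13 to 6.31 in WT CONT, 7.37 and 7.28 on WT PCN 1 and 2, 5.68 and 5.89 on WT PCN 3 and 4, and 5.78 to 6.05 in Pxr-/- CONT. In Pxr-/- PCN it had 6.09, 5.92, 7.50 and 6.50 on arrays 1 to 4. The probes disagree on Pxr-/- PCN 3, which was the highest of the 17 arrays for probe 2 and below every WT CONT array for probe 1. They also differ on Pxr-/- PCN 4, which was above every WT CONT array for probe 2 and level with the lowest for probe 1. Pearson's r between both probes was 0.774 over 17 arrays and 0.917 over the 16 without Pxr-/- PCN 3.

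PCN in WT mice was the first comparison, and its result turned on WT PCN 3 and 4. With all 17 arrays, the difference between WT PCN and WT CONT was 0.27 ± 0.47 (SE, n = 4 and 4) on the log2 scale for Abcb1a, 0.37 ± 0.47 for Abcb1b and 0.32 ± 0.47 for Abcb4. Without the 4 near-identical arrays it was 1.38 ± 0.13 (SE, n = 2 and 4) for Abcb1a, 1.49 ± 0.16 for Abcb1b and 1.47 ± 0.14 for Abcb4, that is, fold changes of 2.60, 2.81 and 2.76. Abcb1a probe 2 gave 0.37 ± 0.37 with all arrays and 1.11 ± 0.27 without these 4. In the reduced set, WT PCN 1 and 2 lay above all WT CONT arrays for each of the 4 probes, as they did for 8.08% of all probes.

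In a linear model across all probes (limma), a call needed a false discovery rate up to 0.05 together with more than a 1.5-fold change. With 17 arrays it called 0% of probes as higher under PCN in WT, although 1786 probes had an unadjusted p under 0.05 in either direction. With 13 arrays it called 20 probes as higher, 0.0545% of the 36695, which stand for 19 genes. Probe 1 of Abcb1a, Abcb1b and Abcb4 is among the 20, at places 15, 11 and 12 by size. Since the genes were chosen from this contrast, nothing is read from these counts. The other called genes were S100a8 and Cxcl5, known from neutrophils and their recruitment, the protease inhibitors Stfa2l1 and Cstdc4, the cytokines Il1b, Il6 and Il33, the carboxylesterase Ces2a, the aldo-keto reductase Akr1b7, and Calca, Sh2d7, Serpina3n, Ifitm6, Ifitm1, Ltb4r1 and Selp.

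Differences within a slide or wash bath restate the values of these same arrays and are not separate results. Within wash bath 2, and within bath 1 without the near-identical arrays, the PCN side is 1 array. On slide 2, WT PCN 2 exceeded WT CONT 2 by 1.45 on the log2 scale for Abcb1a, 1.45 for Abcb1b and 1.49 for Abcb4. On slide 7, WT PCN 1 exceeded WT CONT 4 by 1.41, 1.45 and 1.48 in the same order. On slide 4, WT PCN 3 was lower than WT CONT 3, with differences of -0.997, -0.83 and -0.96. Within wash bath 2, which holds none of WT PCN 2 to 4, the difference was 1.35 for Abcb1a, 1.46 for Abcb1b and 1.46 for Abcb4, and within wash bath 1 it was -0.24, -0.14 and -0.22 with all arrays and 1.40, 1.52 and 1.48 without the near-identical ones.

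In Pxr-/- mice, the fitted PCN differences were positive. They were close to those in WT with all arrays and smaller than those in WT without the near-identical arrays. With all arrays, they were 0.36 ± 0.44 (SE, n = 4 and 5) for Abcb1a, 0.28 ± 0.44 for Abcb1b and 0.32 ± 0.44 for Abcb4. Without the near-identical arrays, they were 0.47 ± 0.12 (SE, n = 3 and 4), 0.41 ± 0.14 and 0.45 ± 0.13, that is, fold changes of 1.39, 1.33 and 1.36. Both groups overlapped for each first probe, since Pxr-/- CONT 4 reached into the PCN range. The model called 0.00545% of probes as higher with 17 arrays, namely Selp and Gm15998, and 0.0382% as higher and 0.00818% as lower with 13. The 14 probes called higher stand for S100a9, S100a8, Cxcl5, Cstdc4, Serpina3n, Gm15998, Stfa1, Selp, Serpina3i, Tgm1, Ifitm1, Ifitm6 and Ackr1, and the 3 called lower for Pla2g4c, Islr2 and Gm11783. Abcb1a probe 2 gave 0.60 ± 0.35 with all arrays and 0.79 ± 0.24 without the near-identical ones, where its groups did not overlap, as for 4.5% of all probes. Within slides, the difference was positive on slide 5 (0.66 for Abcb1a, Pxr-/- PCN 1 against Pxr-/- CONT 2) and slide 6 (0.77, Pxr-/- PCN 4 against Pxr-/- CONT 5) and negative on slide 1 (-0.60, Pxr-/- PCN 2 against Pxr-/- CONT 4).

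The PCN difference in Pxr-/- minus that in WT depended on the same arrays. With all arrays it was 0.089 ± 0.64 (SE) for Abcb1a, -0.082 ± 0.64 for Abcb1b and -0.0071 ± 0.64 for Abcb4. Without the near-identical arrays it was -0.91 ± 0.18, -1.08 ± 0.21 and -1.02 ± 0.19. The model called 0.00273% of probes as lower in this comparison with 13 arrays, which is Sh2d7 alone, and 0% with 17, where 2038 probes had an unadjusted p under 0.05. The values of the 3 genes share all their arrays with the contrasts that chose the genes and are given without a test.

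**Figure D3:**
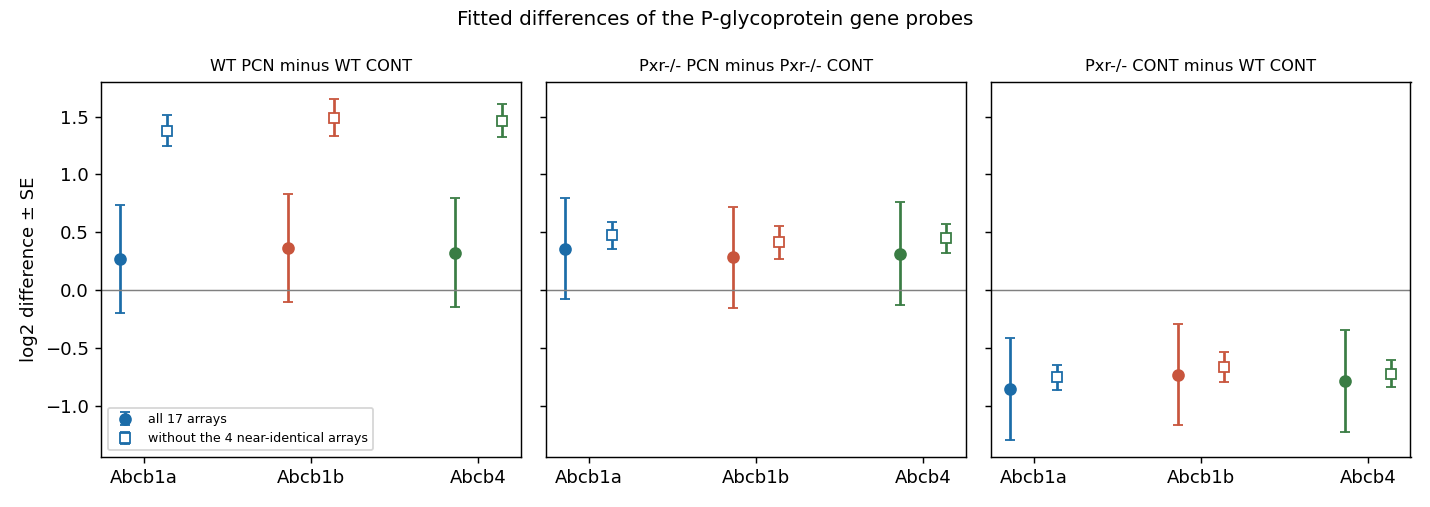
Fitted log2 differences ± SE of probe 1 of each gene in the 3 comparisons, with all 17 arrays (filled circles) and without the 4 near-identical arrays (open squares). The WT PCN difference moves from 0.27 to 1.38 for Abcb1a, while the genotype difference stays between -0.86 and -0.67 over the 3 genes.

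The genotypes were compared without PCN, where the question is whether colon of mice without the receptor carries another basal level of the pumps. All 3 genes had lower values in Pxr-/- CONT than in WT CONT, and the arrays of the genotypes did not overlap for any of the 4 probes, whereas 3.43% of all probes were separated in this direction. The log2 difference was -0.86 ± 0.44 (SE, n = 5 and 4, 95% interval -1.79 to 0.078) for Abcb1a, -0.73 ± 0.44 (-1.67 to 0.20) for Abcb1b and -0.79 ± 0.44 (-1.73 to 0.16) for Abcb4. These are 0.552, 0.602 and 0.579 of the WT CONT level. None passed limma's test, with adjusted p of 0.412, 0.479 and 0.453 over all probes, and the model called no probe in either direction (0%), with 4868 probes at an unadjusted p under 0.05.

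That model uses a single spread for all groups. The SD of Abcb1a was 1.35 in WT PCN (n = 4) against 0.15 in WT CONT (n = 4), 0.26 in Pxr-/- CONT (n = 5) and 0.40 in Pxr-/- PCN (n = 4). Without the 4 near-identical arrays, the genotype difference was -0.75 ± 0.11 (SE, n = 4 and 4, 95% interval -0.99 to -0.51) for Abcb1a, -0.67 ± 0.13 (-0.95 to -0.38) for Abcb1b and -0.72 ± 0.12 (-0.98 to -0.47) for Abcb4. Limma's adjusted p was then 0.0915, 0.136 and 0.101, and over all alternatives it ran from 0.0637 to 0.931, 0.0965 to 0.940 and 0.0675 to 0.936. In this reduced set 4.45% of probes were separated in the same direction, and 3939 probes had an unadjusted p under 0.05.

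A two-sided exact permutation of the genotype labels over the 9 CONT arrays gave p = 0.0159 for each first probe, the smallest value that 5 against 4 arrays allow. Without Pxr-/- CONT 2, it gave p = 0.0286, again the smallest possible with an exact permutation of 4 against 4. These p-values are for single probes and are not adjusted for the other probes of the array. Every probe whose CONT arrays separate by genotype has this smallest p, so it restates the lack of overlap. Of all 36695 probes, 1257 were separated as lower and 1065 as higher over the 9 CONT arrays. The first probes ran nearly in parallel, as given below, so their p-values are not separate results. Abcb1a probe 2 had the same exact p of 0.0159, with a smaller difference of -0.32 ± 0.35 (SE, n = 5 and 4). Within wash baths, the genotype difference was -0.79 and -0.83 for Abcb1a, -0.65 and -0.72 for Abcb1b, and -0.75 and -0.73 for Abcb4 in baths 1 and 2. On slide 6, the only slide with both genotypes of CONT, Pxr-/- CONT 5 differed from WT CONT 5 by -0.89, -0.78 and -0.85. With the slide as a fixed block over all 17 arrays, the genotype difference was -0.33 ± 0.59, -0.28 ± 0.56 and -0.31 ± 0.60 (SE).

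The 3 first probes ran in parallel over the arrays. Pearson's r was 0.995 between Abcb1a and Abcb4, 0.997 between Abcb1b and Abcb4 and 0.990 between Abcb1a and Abcb1b (17 arrays, a description). The SD of each probe over the arrays was 0.75 to 0.76 on the log2 scale, and the SD of the gap between a pair of probes was 0.061 to 0.11. After the group and bath means were taken out, r was 0.989 to 0.996 over 17 arrays and 0.822 to 0.924 over 13. The values of 1 array share the same RNA, label and slide, and the genes were chosen as a family that moved together. How far transcripts of 1 gene on several probes contribute to this was not tested. The dim probes of Abcb1b and Abcb4 were all close to background and did not settle this. WT PCN 1 and 2 had the highest intensities of Abcb1b probe 2, 44.5 and 43, against 28 to 35 on the other arrays. Abcb4 probe 3 had 39 and 37 on these arrays, against 26 to 35.5 on the others. Abcb4 probe 2 had 46 on WT PCN 1 but 34 on WT PCN 2, below WT CONT 2, 3 and 5 at 38.5, 35 and 42.

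**Figure D4:**
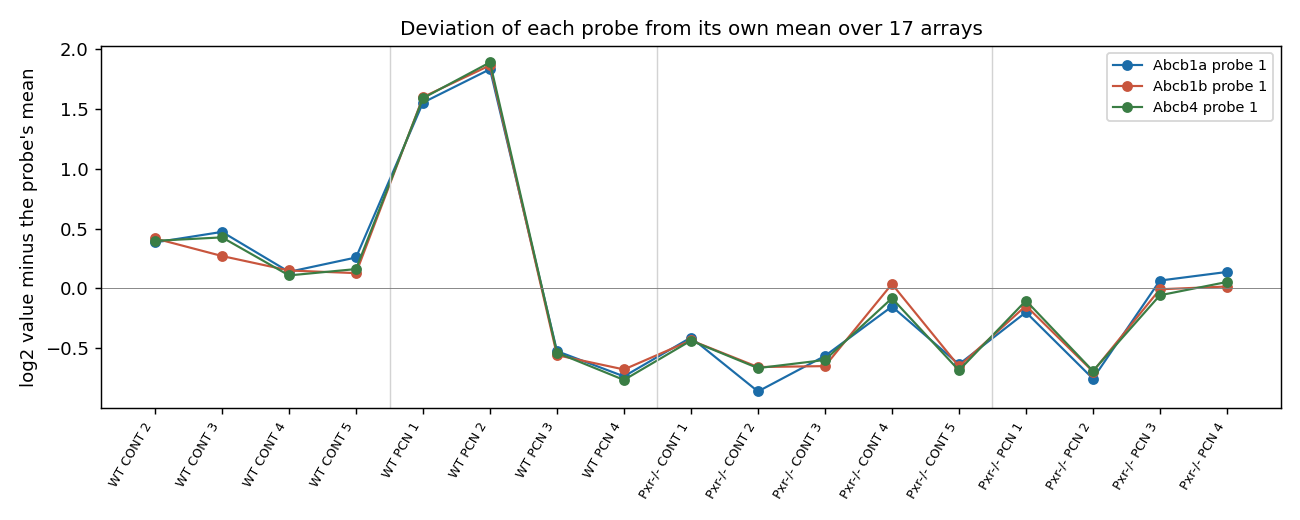
Log2 value of probe 1 of each gene minus its own mean over the 17 arrays, by array. The 3 lines nearly coincide, and the gap between any pair of probes has an SD of at most 0.11 where each probe has an SD of about 0.76.

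By likeness over the 17 arrays, 1 probe per gene and 23775 other genes compared, no gene outside the cluster came as close. Ces2a, an intestinal carboxylesterase, was first for all 3, with r of 0.938 for Abcb1a, 0.938 for Abcb1b and 0.933 for Abcb4, and 0.951 to 0.960 over the 13 arrays. Ces2f and Fam20c, a kinase of secreted proteins, followed with r of 0.906 to 0.918. The remaining places among the first 5 were held by Akr1b7, Ninj1 and the transcript BQ563014, with r of 0.886 to 0.908. The number of genes with r over 0.9 was 3, 5 and 4 for Abcb1a, Abcb1b and Abcb4.

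Ces2a and Akr1b7 were also the 2 called genes among 25 measured PXR targets other than the Abcb genes, a list of 36 in all. They were called in WT without the near-identical arrays (n = 2 and 4), where 0.0545% of all probes were called as higher. The list was chosen with earlier results of these data known, so its counts are a description. Ces2a differed by 2.30 ± 0.24 (SE) between WT PCN and WT CONT without the near-identical arrays (adjusted p = 0.00703, limma) and by 0.53 ± 0.72 with all of them (0.942). Akr1b7 gave 1.96 ± 0.19 (0.00479) and 0.68 ± 0.53 (0.932). With 17 arrays, 0 of the 25 genes were called, 1 had an unadjusted p under 0.05, and their median difference was 0.16 against -0.0019 over all probes. Without the near-identical arrays the median was 0.31 against -0.0050, and 6 of the 25 had an unadjusted p under 0.05, against 1792 of the 36695 probes. In Pxr-/- mice, 0 were called in either set of arrays, 1 had an unadjusted p under 0.05, and the medians were -0.0086 and 0.025. The largest WT differences with all arrays were those of the P450 genes Cyp2c65 (1.43 ± 1.28), Cyp2c66 (1.34 ± 1.26) and Cyp2c55 (1.03 ± 0.92), all with an adjusted p of 0.932. Without the near-identical arrays these were 0.42 ± 1.68, 0.33 ± 1.64 and 2.40 ± 1.03, so that Cyp2c55 was then the highest of them.

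No other pump of the lists was called. For PCN in WT, the model called 0% of all probes with 17 arrays and 0.0545% as higher with 13. A count of 0 is near that share, so nothing particular to these pumps is read from it. An unadjusted p under 0.05 was found for 1786 and 1792 of the 36695 probes. Of the 8 measured genes of the same B subfamily, among them the peptide transporters Tap1 and Tap2, 0 were called in any comparison. Their medians in WT were 0.048 with 17 arrays and -0.0084 with 13, with 0 genes at an unadjusted p under 0.05 in either, and the largest differences with 17 arrays were those of Tap1 (0.30 ± 0.43), Abcb9 (0.28 ± 0.28) and Abcb6 (0.15 ± 0.26). With 13 arrays, Tap1 turned to -0.49 ± 0.38, and Abcb9 and Abcb6 were at 0.041 ± 0.35 and 0.075 ± 0.36. Of 9 measured drug efflux pumps of other families, among them Abcc2, Abcc3 and Abcg2, which sit with P-glycoprotein in the gut epithelium, 0 were called, again with 0 at an unadjusted p under 0.05 in WT. Their WT medians were -0.020 and 0.028, and Slc47a1 (0.54 ± 0.60), Abcc6 (-0.24 ± 0.19) and Abcc5 (0.22 ± 0.32) differed most with 17 arrays. With 13 arrays these were 0.30 ± 0.82, -0.22 ± 0.24 and 0.22 ± 0.45.

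Genes around the function of Abcb4 in lipid and bile transport were measured for 15 of 15, and 0 were called. Of all probes, 0% were called for PCN in WT with 17 arrays and 0.0545% as higher with 13. The WT medians were 0.011 and 0.020 with 17 and 13 arrays, with 0 genes at an unadjusted p under 0.05. Slc51a and Slc51b, which together export bile acids from the enterocyte, differed by 1.99 ± 2.02 and 0.70 ± 0.41 in WT with 17 arrays, and Slc10a2, the apical bile acid importer, by 0.84 ± 1.06. With 13 arrays, Slc51a was at 0.26 ± 2.64, Slc51b at 0.61 ± 0.56 and Slc10a2 at 0.81 ± 1.47, and the sterol exporter Abcg5 had the largest difference, 1.33 ± 0.95 against -0.12 ± 0.96 with 17. Among 21 nuclear receptors and other factors known to act on Abcb1 genes, 0 were called, again near these shares. Their WT medians were -0.021 and -0.017, with 2 genes and 1 gene at an unadjusted p under 0.05, and Egr1 (0.77 ± 0.41), Nfya (-0.42 ± 0.17) and Nr1i2 (-0.35 ± 0.27) had the largest WT differences with 17 arrays. With 13 arrays, Egr1 was at 0.99 ± 0.47 and Nfya at -0.49 ± 0.21, while Nr1i2 was at 0.052 ± 0.29, without the low values of WT PCN 3 and 4. Nr1i2 itself had a genotype difference of -1.06 ± 0.25 without PCN, with an adjusted p of 0.194 in limma and an exact permutation p of 0.0159. In all of these lists, 0 genes were called for PCN in Pxr-/- mice or between the genotypes. Of all probes, at most 0.0382% were called in 1 direction for PCN in Pxr-/- mice, and 0% between the genotypes.

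The place of the genes on the chromosome is that of a tandem cluster. In RefSeq (GRCm38.p6, plus strand), Abcb1a spans chr5:8567091-8748575, Abcb1b chr5:8798147-8866314 and Abcb4 chr5:8893614-8959226, with 49571 bases between the first pair and 27299 between the second. Gm5106, the only other measured gene inside the cluster, differed by 0.20 ± 0.28 between WT PCN and WT CONT with 17 arrays and by -0.0038 ± 0.25 with 13. Of the 20 nearest measured genes, 10 on either side, 0 were called in any comparison. The model called at most 0.0545% of all probes in 1 direction. For PCN in WT, 2 and 3 of the 20 had an unadjusted p under 0.05 with 17 and 13 arrays, against 1786 and 1792 of the 36695 probes. For PCN in Pxr-/- mice it was 3 and 2, against 2739 and 2682. Between the genotypes without PCN it was 5 and 4, against 4868 and 3939. Of the 20, Gm6460 and Gm6647 were well above background on only 3 arrays each. Their median WT difference was 0.0018 with 17 arrays and -0.0026 with 13. The direct neighbours were Rundc3b, whose gene model overlaps that of Abcb1a, with 0.26 ± 0.18 and 0.57 ± 0.16 (adjusted p = 0.932 and 0.648, limma), and Crot, which codes for a peroxisomal carnitine acyltransferase, with -0.17 ± 0.10 and -0.22 ± 0.13.

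**Figure D5:**
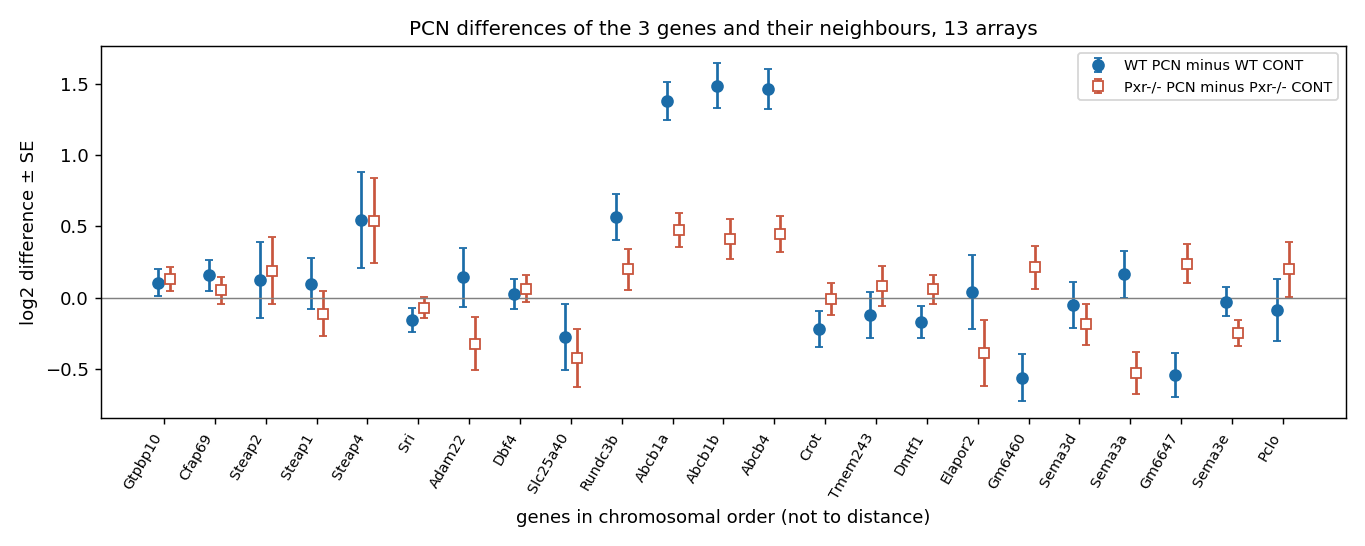
Log2 differences ± SE for PCN in WT (filled circles) and Pxr-/- mice (open squares) over the 13 arrays, for the 3 genes and the 10 nearest measured genes on either side, in chromosomal order and not to distance. The 3 genes stand at 1.38 to 1.49 in WT, Rundc3b at 0.57, and the other neighbours between -0.56 and 0.55. The lowest, Gm6460, was well above background on only 3 arrays.

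Because the 3 genes moved together, the RefSeq sequence just before each gene start is shown (GRCm38.p6, plus strand), up to 250 bases and without transcribed bases. Capitals mark the motifs found by a search of both strands, which were the box CCAAT (reading ATTGG where it lies on the minus strand), the GC box GGGCGG, the TATA box TATAAA, and a pair of nuclear receptor half-sites, of which the first is AGGTCA and the second is AGTTCA (reading TGAACT where it lies on the minus strand).
Abcb1a, chr5:8566841-8567090: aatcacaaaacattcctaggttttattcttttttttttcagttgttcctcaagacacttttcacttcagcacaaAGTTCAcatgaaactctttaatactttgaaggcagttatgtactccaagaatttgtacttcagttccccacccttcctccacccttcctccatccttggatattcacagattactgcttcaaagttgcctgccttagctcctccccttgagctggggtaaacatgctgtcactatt
Abcb1b, chr5:8797897-8798146: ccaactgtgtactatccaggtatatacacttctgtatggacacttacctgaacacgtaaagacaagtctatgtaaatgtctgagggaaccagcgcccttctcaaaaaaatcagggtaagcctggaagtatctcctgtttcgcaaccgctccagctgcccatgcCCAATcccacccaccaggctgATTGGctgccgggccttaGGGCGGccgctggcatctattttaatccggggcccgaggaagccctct
Abcb4, chr5:8893471-8893613: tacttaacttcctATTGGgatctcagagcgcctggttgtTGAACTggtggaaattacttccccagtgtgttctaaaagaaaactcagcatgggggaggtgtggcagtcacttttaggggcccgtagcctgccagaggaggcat
The stretch before Abcb1b held 2 CCAAT boxes, 87 and 66 bases before the start, and 1 GGGCGG, 48 bases before it. That before Abcb4 held 1 CCAAT box and 1 AGTTCA, and that before Abcb1a held 1 AGTTCA, 176 bases before the start, and neither box. The GC content was 40.4% before Abcb1a, 52.8% before Abcb1b and 50.3% before Abcb4. Of 32851 RefSeq promoter windows of 300 bases, 37.4% held CCAAT, 35.7% held GGGCGG and 14% held AGTTCA, so these matches are common. Pairs of half-sites as direct repeats 3 or 4 bases apart, or as an everted repeat 6 bases apart, were in none of the windows of the 3 genes and in 0.0122%, 0.0274% and 0.00913% of all windows. No match says only that these letters are not in this window.

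Markers of the colon were present on every array, and some of them varied, as did those of other organs. Over the 17 arrays, Hoxb13 had log2 values of 7.75 to 16.27, Hoxd13 5.83 to 11.82 and Aqp8 13.13 to 16.66. Vil1 stayed between 14.98 and 15.37. A mean over the list does not show these ranges. All 10 colon markers, from Car1 and Slc26a3 to Muc2 and Hoxb13, were well above background on 17 arrays, and their mean log2 value was 14.35 to 14.98 in the CONT groups, 14.43 to 15.23 in WT PCN and 13.44 to 15.20 in Pxr-/- PCN. Of 8 liver markers, 5 were measured, and their mean was 8.89 on WT PCN 1 and 9.62 on WT PCN 2, against 7.09 and 7.16 on WT PCN 3 and 4, 6.52 to 11.80 in WT CONT, 6.10 to 7.35 in Pxr-/- CONT and 6.43 to 7.14 in Pxr-/- PCN. WT CONT 5, an array without PCN, had the highest liver signal of all arrays, with Alb at 12.25 and Abcb1a at 13.87. WT PCN 1 and 2, the highest arrays for the 3 Abcb genes, had the next highest liver means. The part of liver RNA in the Abcb values was not tested. Of 8 pancreas markers, 6 were measured, with means of 16.66 on WT CONT 4, 16.49 on WT PCN 3 and 14.54 on Pxr-/- CONT 2 and 6.46 to 10.83 on the other arrays. The means of 6 T and NK cell markers were 8.01 to 8.82 in WT CONT, 7.82 to 9.34 in WT PCN, 8.24 to 9.11 in Pxr-/- CONT and 7.97 to 9.74 in Pxr-/- PCN. Those of 4 B cell markers were 7.96 to 10.94, 7.13 to 9.55, 7.46 to 9.38 and 7.13 to 9.82 in the same order of groups.

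Some of these lists differed where the Abcb genes did, in the same or the other direction, and no marker was called in any comparison. The 6 endothelial markers had means of 8.94 to 9.09 in WT CONT, 8.78 to 8.93 in WT PCN, 8.75 to 8.91 in Pxr-/- CONT and 8.78 to 8.92 in Pxr-/- PCN. All 6 were lower in Pxr-/- CONT than in WT CONT, with a median difference of -0.13 and 2 at an unadjusted p under 0.05. In this comparison, 4868 of the 36695 probes were under 0.05. The arrays of the genotypes did not overlap in the mean of the 6, and 3.43% of single probes were separated in this direction. In WT PCN, all 6 were lower than in WT CONT with 17 arrays and 5 with 13, while the fitted Abcb differences were positive. All measured liver, pancreas and B cell markers were lower in Pxr-/- CONT as well, with median differences of -1.63, -1.27 and -1.15 and 0 at an unadjusted p under 0.05. Of the 6 T and NK cell markers, 5 were higher in Pxr-/- CONT, with a median difference of 0.35 and 1 at an unadjusted p under 0.05. The 5 smooth muscle markers had means of 14.73 to 15.61 in WT CONT, 15.01 to 15.30 in WT PCN, 14.93 to 15.49 in Pxr-/- CONT and 14.63 to 15.07 in Pxr-/- PCN. All 5 were lower in Pxr-/- PCN than in Pxr-/- CONT, with a median difference of -0.44, 3 of them at an unadjusted p under 0.05 with 17 arrays and 0 with 13. Of all 36695 probes, 2739 and 2682 were under 0.05 in these sets of arrays. The part of these cells in the values of the Abcb genes was not tested.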

How the data were processed

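Colon RNA of 17 mice, labelled with Cy3, was hybridised to 1-colour Agilent arrays on 8 slides washed in 2 baths. The authors deposited the scanner output, with the intensity of each spot and its background (Agilent Feature Extraction 10.10.1.1 per the submitters' processing notes), and a table of log2 values of 36695 probes. Per the methods, the authors made the log2 values from median intensities by a filter, log2, a correction for the wash bath and CrossNorm normalization, and all columns have the same quantiles. Each column matched its own array best (17 of 17, r of 0.9996 or more). Between 61.0% and 69.7% of probes were well above background on an array, no spot was saturated, and the number of arrays limits the precision.

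The log2 table gave the main values, since the probes were chosen for it, and the scanner files gave the alternatives. For every probe, limma 3.58.1 in R 4.3.3 fitted the means of the 4 groups with a term for wash bath over 17 arrays, and again without WT PCN 3 and 4, Pxr-/- CONT 2 and Pxr-/- PCN 2. P-values were adjusted by Benjamini-Hochberg, and calls needed a false discovery rate up to 0.05 together with more than a 1.5-fold change. The probe with the highest mean stood for a gene. Arrays of a group are labelled as separate mice, and p-values measure the spread between these arrays. The fit was checked on simulated data. Genes were named through RefSeq accessions where these matched (24138 of the 36695 probes) and otherwise by the name in the array files.

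The 3 genes, the gene lists and the cell type markers were chosen with earlier results of these data known. By rule, the text names all probes of the 3 genes, Nr1i2, the called genes, the 3 genes of each list with the largest WT PCN difference, direct neighbours and the 5 most correlated genes. Alternatives were other signals and normalizations, a filter on dim probes (well above background on at least 4 arrays), normexp with an offset of 50, no bath term, slide or replicate blocks, only the groups compared, a mean over probes, eBayes with trend and robust, and each array left out. Liver arrays of the study were not analysed here.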

Additional observations from a re-analysis of the deposited data

How the results depend on the processing

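The genotype difference of Abcb1a, Abcb1b and Abcb4 kept its direction and stayed short of the threshold in all 88 alternatives computed. The 88 count each setting once per gene (30, 29 and 29), and many of the settings leave out 1 array. With the slide as a fixed block the genotype difference shrank to -0.33, -0.28 and -0.31. It ranged from -1.01 to -0.75, -0.92 to -0.64 and -0.95 to -0.70 with 1 array left out. The WT PCN difference moved to 1.38, 1.49 and 1.47 without the 4 near-identical arrays, and also without WT PCN 3 and 4 alone. With 1 array left out it ranged from -0.16 to 0.66 for Abcb1a, -0.071 to 0.74 for Abcb1b and -0.12 to 0.72 for Abcb4, being negative without WT PCN 1 (-0.16, -0.071 and -0.11) and without WT PCN 2 (-0.16, -0.067 and -0.12). The remaining 76 alternatives for it, again counted once per gene, moved by less than 1 SD. The Pxr-/- PCN difference ranged from 0.24 to 0.52, 0.18 to 0.47 and 0.23 to 0.48 with 1 array left out, and with the slide as a fixed block it turned negative for Abcb1b (-0.10) and Abcb4 (-0.059). The cause was not tested.

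Counts of called probes depended on the arrays and on the samples in the fit. For PCN in WT, 20 probes were called without the 4 near-identical arrays, 39 without WT PCN 3 and 4 alone, and 0 to 18 with 1 array left out. For PCN in Pxr-/-, the count was 0 with the scanner's processed signal, with normexp and with the slide as a random or fixed block, 20 with only the groups compared, 17 without the 4 arrays, 33 without WT PCN 3 and 4, and 0 to 28 with 1 array left out. For genotype it was 21 with only the groups compared, 1 without WT PCN 3 and 4, and 0 to 8 with 1 array left out. Of the other PXR targets, 2 were called in WT without the 4 arrays.

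Replicate numbers were not taken to pair the samples. Of 22 pairs of arrays with the same number, 11 had correlated deviations over 0.1, and the correlations ran from -0.30 to 0.53. Among pairs with different numbers, correlations reached -0.60 and 0.72. Whether same-number pairs are more alike was not tested. With the replicate number as a block, the WT PCN difference was 0.090, 0.16 and 0.12 for Abcb1a, Abcb1b and Abcb4, the Pxr-/- PCN difference 0.30, 0.21 and 0.24, and the genotype difference -0.94, -0.82 and -0.87, with 0 probes called in each.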
